A study of Homo sapiens with 50 samples.

Results

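Quizalofop-p-ethyl at 10 uM was compared with control in HepaRG cells, a human liver cell line that differentiates into hepatocyte-like and biliary-like cells. The members are 9 of the 50 RNA libraries of the study: 4 of the 5 labelled Quizalofop-p-ethyl 10 uM and all 5 labelled Control. The fifth 10 uM library, RM-Sample-89, was left out because ribosomal RNA loci took 30.7% of its summed signal, against 0.316% to 1.71% in the other 49. All cells were differentiated HepaRG (HPR 116), kept from day 8 to day 14 in test medium with 2% fetal bovine serum and 1% DMSO; the 10 uM cells also received quizalofop-p-ethyl, and the labels name no agent for control. The study also gave quizalofop-p-ethyl at 0.1 uM and 1 mM, and isoxaflutole and mesotrione at the same 3 concentrations.

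Quizalofop-p-ethyl is the ethyl ester of an aryloxyphenoxypropionate herbicide, a class that blocks plastid acetyl-CoA carboxylase of grasses, the enzyme that commits acetyl-CoA to fatty acid synthesis. Hepatocytes answer many lipophilic acids through PPARalpha, a nuclear receptor that switches on fatty acid uptake, oxidation and lipid droplet coat genes, and answer foreign compounds through the receptors AHR, CAR and PXR. HepaRG cultures also make extracellular matrix, the collagens and proteoglycans that mesenchymal cells make in a liver.

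No gene passed the test. Expression was read as FPKM (fragments scaled by transcript length and by the fragments of the library), summed over the transcripts of a gene. Of 56567 gene names, 13368 reached 1 FPKM in 4 or more of the 9 libraries, and limma on log2(FPKM + 1) with Benjamini-Hochberg adjustment called 0 of them (0%) at an adjusted p under 0.05, the lowest adjusted p being 0.101. At an unadjusted p under 0.05 there were 810 genes (6.06%), 596 higher at 10 uM (4.46%) and 214 lower (1.6%). With libraries scaled by median ratios in place of FPKM totals, the split was 401 higher and 302 lower. The 4 libraries at 10 uM lay above all 5 controls for 283 genes (2.12%) and below all 5 for 72 (0.539%). Over all genes the median log2 fold change was 0.04, and it was above 0 for 8124 genes (60.8%).

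The intervals were narrow for most genes. The 95% interval of the log2 fold change had a median half-width of 0.32, or 0.27 for the 7843 genes with a mean of 5 FPKM or more. On the log2 scale used, it lay wholly inside a 2-fold difference in either direction for 11788 genes (88.2%). Among the genes at 5 FPKM or more, 7059 did so. That scale understates changes of low genes, so 2-fold changes in FPKM itself are not excluded for all of the 11788. CILP had a log2 fold change of 0.58 at means of 1.17 FPKM at 10 uM and 0.451 FPKM in control. RAB26 had -0.72 at means of 1.03 FPKM at 10 uM and 2.34 FPKM in control. Whether replicates were separate cultures is not in the labels; the p-values therefore reflect spread between these libraries, which may be technical. In bulk RNA, fewer cells of a type and less RNA per cell cannot be told apart.

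The libraries differed in depth. The FPKM table holds no counts, and depth estimated from the FPKM step of 1 fragment was 11200000 to 19050000 fragments at 10 uM (median 12138750) and 11540000 to 24420000 in control (median 17657200). The part of depth in the differences was not tested. Genes at 1 FPKM or more numbered 12856 to 13201 at 10 uM and 12674 to 13774 in control. The left-out library had an estimated 3780000 fragments and 5084 such genes. Hepatocyte markers were abundant in both groups: their summed level over 22 genes was 24480 to 27183 FPKM at 10 uM and 23010 to 27995 FPKM in control. Of the 22, CYP8B1 and SLC10A1, a bile acid hydroxylase and a bile acid importer, stayed under 1 FPKM.

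The leading genes are taken here as the 10 higher and the 10 lower genes of lowest p among genes in the reference list of symbols whose groups did not overlap and whose higher group averaged at least 5 FPKM; with no gene past the threshold, they were chosen after their values were seen. SUSD2, a cell surface protein with a sushi domain (GRCh38, chromosome 22, 24181259 to 24189110, plus strand), had 58.4, 51.9, 59.3 and 68.7 FPKM at 10 uM, against 36.8, 31.5, 32.1, 36.9 and 33.2 FPKM in control. Every 10 uM library lay above every control library. Its log2 fold change was 0.78 (SE 0.09, 95% interval 0.59 to 0.98, limma adjusted p = 0.101). Against 0.1 uM the same 4 libraries gave 0.61 (95% interval 0.31 to 0.90), again without overlap. With the left-out library RM-Sample-89 included, the log2 fold change of SUSD2 was -0.40. Without 10 uM replicate 2 it was 0.85 at a limma adjusted p of 0.0288. The limma adjusted p was 0.293 without 10 uM replicate 1 and 0.376 without control replicate 5. In a fit with a term for blocks of consecutive sample numbers it was 0.679.

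EPYC encodes epiphycan, a small leucine-rich proteoglycan of cartilage (chromosome 12, 90963679 to 91005026, minus strand). It had 12.9, 12.3, 11.5 and 10.5 FPKM at 10 uM, against 6.92, 6.77, 7.74, 5.81 and 6.71 FPKM in control. The groups did not overlap, and the log2 fold change was 0.72 (SE 0.09, 95% interval 0.51 to 0.92, limma adjusted p = 0.121). LUM encodes lumican, a relative of epiphycan that binds collagen fibrils (chromosome 12, 91102629 to 91111831, minus strand). It had 49, 44.1, 52.5 and 46.3 FPKM at 10 uM, against 24.8, 29.1, 35.3, 20.3 and 29.9 FPKM in control, with a log2 fold change of 0.78 (95% interval 0.46 to 1.10, limma adjusted p = 0.44). DCN, decorin, another proteoglycan of this family (chromosome 12, 91140484 to 91183123, minus strand), had 6.64, 6.39, 5.96 and 6.25 FPKM at 10 uM, against 3.67, 4.26, 3.83, 5.71 and 5.86 FPKM in control. Its log2 fold change was 0.39 (95% interval 0.08 to 0.69, limma adjusted p = 0.78). These 3 genes lie within 219445 bases on the same strand, and none of them overlapped between groups.

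COL8A1, the alpha-1 chain of the short-chain collagen VIII (chromosome 3, 99638475 to 99799226, plus strand), had 12.9, 11, 14.0 and 14.6 FPKM at 10 uM, against 8.81, 6.80, 4.72, 6.18 and 5.90 FPKM in control. All 10 uM libraries were above control, with a log2 fold change of 0.93 (SE 0.15, 95% interval 0.59 to 1.27, limma adjusted p = 0.307). ALPP, placental alkaline phosphatase (chromosome 2, 232378534 to 232382889, plus strand), had 13.9, 17.9, 20.2 and 18.5 FPKM at 10 uM, against 12.7, 10.1, 8.81, 9.13 and 6.90 FPKM in control, a log2 fold change of 0.83 (95% interval 0.47 to 1.2). ALPP has near-identical neighbouring copies, so its reads could have been split between them and its level is uncertain. CILP, a cartilage matrix protein (chromosome 15, 65194758 to 65211488, minus strand), fell under the 5 FPKM limit and is added because a fit over 49 libraries called it. It had 1.03, 1.21, 1.22 and 1.21 FPKM at 10 uM, against 0.509, 0.505, 0.335, 0.463 and 0.443 FPKM in control. All controls were under 1 FPKM, so CILP passed the filter only through the group where it was higher.

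The number of calls turned on the fit and on single libraries. A fit over 49 libraries, which takes its spread from all groups, called 5 genes, all higher: CILP, EPYC, HAPLN1, KDR and SUSD2. With unnamed transcripts of a locus added to its gene, 4 were called: COL8A1, EPYC and SUSD2 higher and RAB26 lower. HAPLN1, a link protein of hyaluronan and proteoglycans, had 1.80, 1.97, 3.64 and 2.23 FPKM at 10 uM, against 1.03, 0.762, 0.980, 0.200 and 0.937 FPKM in control. RAB26, a small GTPase of secretory granules, had 0.831, 1.15, 1.22 and 0.901 FPKM at 10 uM, against 2.32, 2.36, 2.25, 2.49 and 2.27 FPKM in control (log2 fold change -0.72, limma adjusted p = 0.121). Neither gene overlapped between the groups. HAPLN1, like CILP, would not have passed the filter without its 10 uM libraries.

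**Figure D1:**
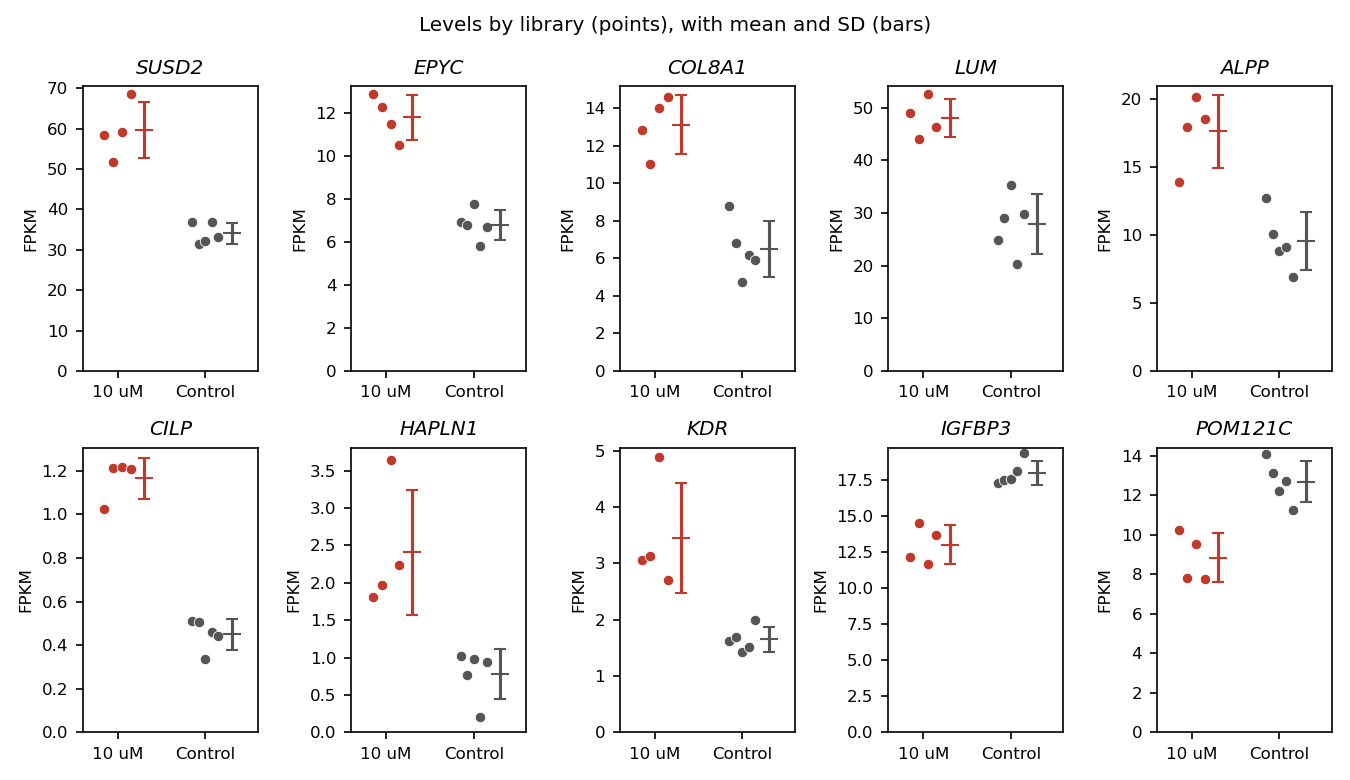
FPKM (vertical axes, from 0) of 10 genes in the 4 libraries at quizalofop-p-ethyl 10 uM (red) and the 5 control libraries (grey); points are libraries, bars beside them the mean and SD. No gene overlaps between the groups: 8 are higher at 10 uM, and IGFBP3 and POM121C are lower.

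The higher 10 held 5 more genes. NR2F1, an orphan nuclear receptor, averaged 8.44 ± 0.708 FPKM at 10 uM and 6.31 ± 0.173 FPKM in control (SD, n = 4 and 5), a log2 fold change of 0.37. NELL2, a secreted glycoprotein, averaged 10.1 ± 1.02 FPKM at 10 uM and 7.34 ± 0.287 FPKM in control. RAB2A, a small GTPase of transport between the endoplasmic reticulum and the Golgi, averaged 19.9 ± 2.97 FPKM at 10 uM and 13.9 ± 0.761 FPKM in control. These and KIAA1217, at 6.03 ± 0.572 FPKM against 3.63 ± 0.578 FPKM in control, did not overlap between groups. TFPI, the inhibitor of the tissue factor pathway of clotting, averaged 33.1 ± 2.57 FPKM at 10 uM and 17.1 ± 4.72 FPKM in control, a log2 fold change of 0.95. Its value turned on which transcripts carried a gene name: with the unnamed transcripts of its locus added it averaged 68.9 ± 5.28 FPKM at 10 uM and 61.7 ± 9.32 FPKM in control.

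The 10 lower genes had log2 fold changes of -0.33 to -0.75. IGFBP3, the main carrier of insulin-like growth factors in blood (chromosome 7, 45912245 to 45921874, minus strand), had 12.2, 14.5, 11.7 and 13.7 FPKM at 10 uM, against 17.3, 17.5, 17.6, 18.2 and 19.4 FPKM in control. All 10 uM libraries were below all controls, with a log2 fold change of -0.44 (SE 0.08, 95% interval -0.61 to -0.27, limma adjusted p = 0.386). POM121C, a nuclear pore membrane protein with near-identical copies and therefore an uncertain level, averaged 8.84 ± 1.23 FPKM at 10 uM and 12.7 ± 1.06 FPKM in control. ABAT, which degrades the transmitter GABA, averaged 11.8 ± 1.65 FPKM at 10 uM and 16.0 ± 0.762 FPKM in control. With the unnamed transcripts of its locus added ABAT overlapped, at 10.7 to 15.5 FPKM at 10 uM and 15.1 to 18.8 FPKM in control. GATA4, a transcription factor of liver and heart, averaged 8.61 ± 0.789 FPKM at 10 uM and 11.5 ± 0.996 FPKM in control. With unnamed transcripts GATA4 also overlapped, at 13 to 14.9 FPKM at 10 uM and 14.6 to 16.8 FPKM in control. The limma adjusted p of the 10 lay between 0.386 and 0.532, INTS3, a subunit of the Integrator complex, having the highest at a log2 fold change of -0.75.

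The remaining lower genes were ARRDC2 (log2 fold change -0.33), MRRF, which recycles mitochondrial ribosomes (-0.58), HOMER2, a scaffold protein (-0.36), ERN1 and GAS5. With unnamed transcripts HOMER2 was 5.71 to 7.31 FPKM at 10 uM and 6.88 to 8.68 FPKM in control, which overlap. ERN1 encodes IRE1, the sensor of unfolded protein in the endoplasmic reticulum, and averaged 4.16 ± 0.897 FPKM at 10 uM and 7.40 ± 1.31 FPKM in control. With unnamed transcripts added ERN1 averaged 6.28 ± 0.909 FPKM at 10 uM and 7.60 ± 1.21 FPKM in control, with overlap. GAS5, a noncoding RNA that hosts small nucleolar RNAs, averaged 35.7 ± 4.5 FPKM at 10 uM and 54.4 ± 9.07 FPKM in control. With unnamed transcripts GAS5 averaged 53.2 ± 2.10 FPKM at 10 uM and 59.8 ± 6.13 FPKM in control, with overlap. For ABAT, GATA4, ERN1, GAS5 and TFPI, then, the difference was smaller once unnamed transcripts were counted. SQSTM1, the autophagy receptor p62, had the highest log2 fold change of all genes tested, 3.21, and the same held for it. Its named transcripts had 241, 278, 450.0 and 431 FPKM at 10 uM, against 27.7, 26.5, 16.8, 288 and 15.4 FPKM in control, while with unnamed transcripts SQSTM1 averaged 433 ± 36.6 FPKM at 10 uM and 349 ± 72.2 FPKM in control.

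The leading genes were also set against the libraries of the other low-concentration groups: 30 libraries of control, quizalofop-p-ethyl 0.1 uM, and isoxaflutole and mesotrione at 0.1 uM and 10 uM. All 4 libraries at 10 uM lay above all 30 for 11 of 13368 genes (0.0823%) and below all 30 for 0 of them (0%). The 11 were SUSD2, EPYC, COL8A1, CILP, ALPP, DCN, GAS6, COL12A1, OLFML3, NDNF and AC079848.1. Of these, CILP and AC079848.1 would not have passed the filter without their 10 uM libraries. EPYC ranged from 10.5 to 12.9 FPKM at 10 uM, against 3.84 to 9.89 FPKM in the 30. COL8A1 ranged from 11 to 14.6 FPKM at 10 uM, against 4.72 to 10.3 FPKM in the 30. SUSD2 ranged from 51.9 to 68.7 FPKM at 10 uM, against 25.5 to 45.5 FPKM in the 30. This set was found by looking for the pattern, so it is a description without a test.

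Among the other genes of the 11, GAS6, a secreted ligand of the TAM receptor kinases, ranged from 99.7 to 109 FPKM at 10 uM and from 71.4 to 87.3 FPKM in control, a log2 fold change of 0.33 (95% interval 0.17 to 0.49). COL12A1, a collagen that sits on the surface of collagen fibrils, averaged 56.4 ± 3.77 FPKM at 10 uM and 40.5 ± 7.12 FPKM in control. OLFML3, a secreted olfactomedin-domain protein, averaged 12.1 ± 0.363 FPKM at 10 uM and 9.82 ± 0.868 FPKM in control. NDNF, a secreted neurotrophic factor, averaged 2.73 ± 0.142 FPKM at 10 uM and 1.56 ± 0.720 FPKM in control. With unnamed transcripts NDNF was 2.60 to 2.91 FPKM at 10 uM and 1.82 to 2.63 FPKM in control, which overlap. The limma adjusted p of these 4 lay between 0.458 and 0.804.

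Matrix genes are also the subject of a gene list. Of 16 mesenchymal and matrix genes 12 were tested: 11 had a log2 fold change above 0 and 1 below, beside 60.8% above 0 over all genes. The median was 0.28, beside 0.04 over all genes. At an unadjusted p under 0.05 there were 4 higher and 0 lower, of 596 (4.46%) and 214 (1.6%) over all genes. These were LUM, DCN, POSTN and COL3A1. POSTN, periostin, a matrix protein of wound repair, had 13, 15.4, 17.1 and 12.9 FPKM at 10 uM, against 9.05, 11.1, 11.5, 9.49 and 9.82 FPKM in control (log2 fold change 0.47, limma adjusted p = 0.489). COL3A1, fibrillar collagen III, averaged 22.3 ± 2.85 FPKM at 10 uM and 17.7 ± 2.95 FPKM in control, with overlap. The major fibrillar collagen chain COL1A1 averaged 3.81 FPKM at 10 uM and 3.78 FPKM in control, and COL1A2, COL6A3, TAGLN and VIM stayed under 1 FPKM. With median-ratio scaling 10 of the 12 were above 0 and the median was 0.25. Over all genes in that setting 7095 of 13368 were above 0 and the median was 0.01. The summed level of the 16 genes overlapped, at 628 to 1080 FPKM at 10 uM and 482 to 962 FPKM in control.

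Markers of stellate cells and fibroblasts, 6 of 12 of which are on the matrix list too, were higher in sum. Their summed level was 86.1 to 92.4 FPKM at 10 uM and 56.5 to 71.6 FPKM in control. Of 8 tested, 6 were above 0, beside 60.8% over all genes. The median log2 fold change was 0.17, which was 0.05 with unnamed transcripts added. LUM alone gave 44.1 to 52.5 FPKM of the sum at 10 uM and 20.3 to 35.3 FPKM in control. The markers COL1A2, DES, TAGLN and THY1 stayed under 1 FPKM in all 9 libraries. PDGFRB, the receptor that marks pericytes and stellate cells, averaged 2.40 FPKM at 10 uM and 2.37 FPKM in control. Endothelial markers summed to 3.26 to 5.47 FPKM at 10 uM and 1.87 to 2.41 FPKM in control. Of these 8 markers 7 stayed under 1 FPKM, PECAM1, VWF and CDH5 among them, so the sum was mostly KDR. KDR, the main receptor of vascular endothelial growth factor, had 3.06, 3.13, 4.88 and 2.70 FPKM at 10 uM, against 1.62, 1.69, 1.42, 1.52 and 2.00 FPKM in control. Leukocyte markers summed to 8.84 to 37.9 FPKM at 10 uM and 9.97 to 37.8 FPKM in control, with CD3E and C1QA at 0 and PTPRC under 1 FPKM. The part of other cell types in the matrix values was not tested.

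**Figure D2:**
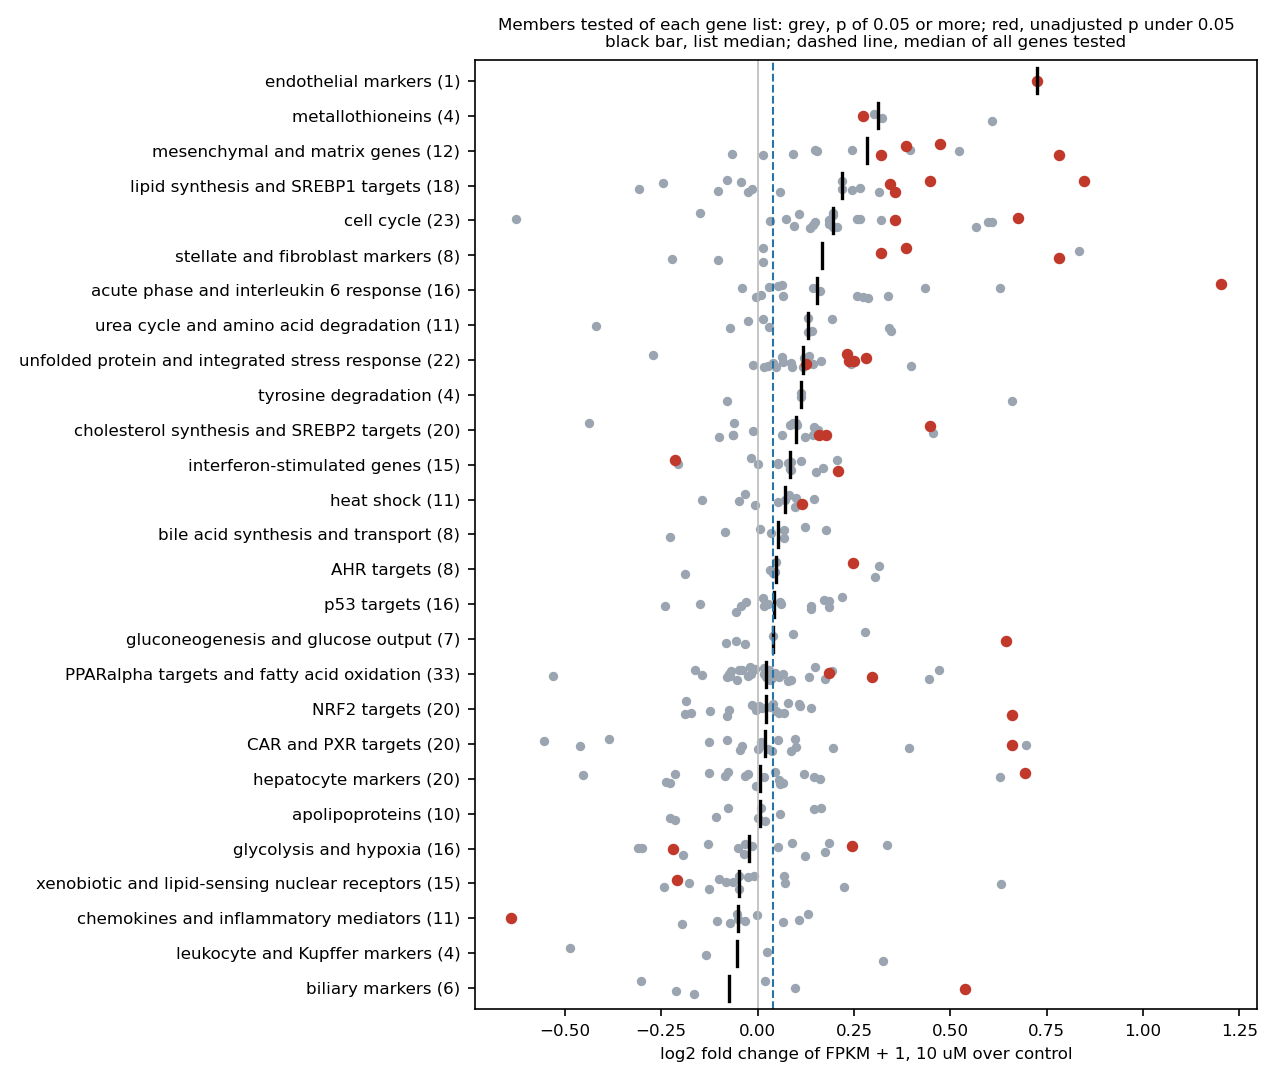
Log2 fold change of FPKM + 1, 10 uM over control (horizontal axis), of the tested members of 27 gene lists (vertical axis, number tested in brackets); red points have an unadjusted p under 0.05, black bars are list medians and the dashed line is the median of all genes, 0.04. No point passed the adjusted threshold, and list medians lie between -0.07 and 0.31 apart from the single endothelial gene at 0.73.

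The PPARalpha list, which holds the receptor's targets and the fatty acid oxidation pathway, gave no called gene and narrow intervals. Of 38 genes 33 were tested. Of these 19 had a log2 fold change above 0 and 14 below, beside 60.8% above 0 over all genes. The median was 0.02, beside 0.04 over all genes. At an unadjusted p under 0.05 there were 2 higher and 0 lower, beside 4.46% and 1.6% over all genes. On the log2 scale, the 95% interval lay inside a 2-fold difference in either direction for 30 of the 33, beside 88.2% over all genes. The exceptions were ACOT1, CD36 and VNN1. Changes of low genes are understated on this scale. With unnamed transcripts added 34 genes were tested, and 3 were higher and 0 lower at an unadjusted p under 0.05. In that setting 700 were higher and 239 lower of 13941 over all genes. ACSL1 then did not overlap, at 58.5 to 62.4 FPKM at 10 uM and 50.6 to 56.6 FPKM in control.

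PLIN2, the lipid droplet coat protein, had 28.6, 32.3, 34.5 and 32.8 FPKM at 10 uM, against 36.4, 34.9, 31.3, 31.9 and 33.7 FPKM in control. The groups overlapped, and the log2 fold change was -0.07 (95% interval -0.23 to 0.09). ANGPTL4, a secreted inhibitor of lipoprotein lipase, had 1.6, 2.54, 3.31 and 2.22 FPKM at 10 uM, against 2.59, 3.05, 2.54, 1.88 and 2.17 FPKM in control, a log2 fold change of -0.03 (95% interval -0.39 to 0.34). PDK4, which holds back pyruvate oxidation, differed by -0.05 on the log2 scale (95% interval -0.53 to 0.42). CPT1A, the entry step of fatty acids into mitochondria, also differed by -0.05 on the log2 scale (95% interval -0.25 to 0.16). In these 4 genes the interval lay on both sides of 0.

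FABP1, the liver fatty acid binding protein, had 80.8, 68.7, 70.2 and 87.6 FPKM at 10 uM, against 61.2, 56.9, 66.9, 65.8 and 60.1 FPKM in control. It did not overlap between the groups, at a log2 fold change of 0.30 (95% interval 0.10 to 0.49, limma adjusted p = 0.666). EHHADH, a peroxisomal enzyme of fatty acid oxidation, differed by -0.16 on the log2 scale. CYP4A11, an omega hydroxylase of fatty acids, was too variable to be bounded closely, with a 95% interval of -0.75 to 0.78. VNN1, a pantetheinase, ranged from 51.8 to 135 FPKM at 10 uM and from 83.7 to 149.7 FPKM in control; with unnamed transcripts VNN1 averaged 109 ± 19.6 FPKM at 10 uM and 125 ± 27.4 FPKM in control. The targets PLIN4, FGF21 and FABP4 fell below the filter: FGF21 was listed at 0 in all 9 libraries, and FABP4 was 0.170 to 0.677 FPKM at 10 uM and 0.185 to 0.615 FPKM in control.

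**Figure D3:**
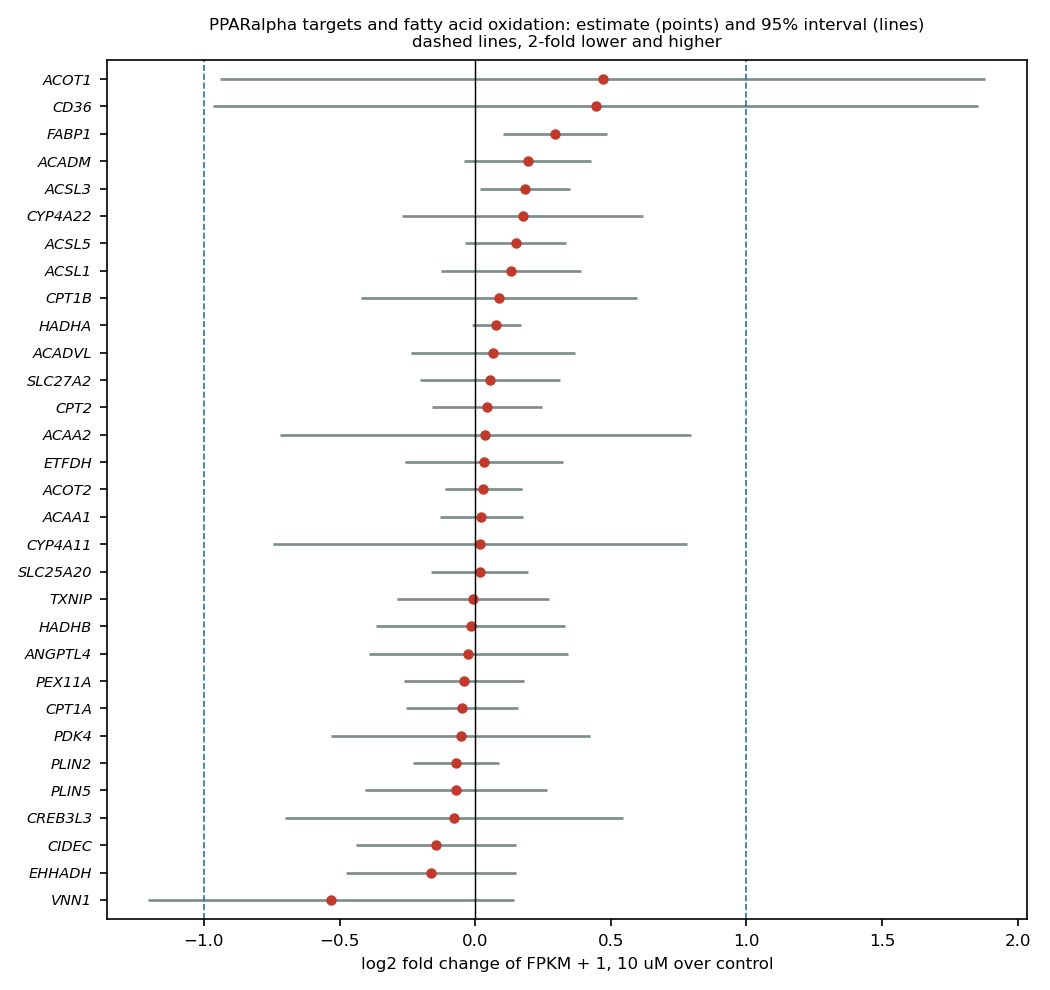
Log2 fold change of FPKM + 1, 10 uM over control (horizontal axis), of 31 of the 33 tested PPARalpha targets and fatty acid oxidation genes (vertical axis); points are estimates, lines 95% intervals and dashed lines 2-fold differences. The intervals of 28 genes lie between the dashed lines, and those of ACOT1, CD36 and VNN1 cross one.

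No gene of lipid synthesis passed the test. Of 18 tested in the list of lipid synthesis and SREBP1 targets, 11 were above 0 and 7 below, beside 60.8% above 0 over all genes. The median log2 fold change was 0.22 (0.10 with unnamed transcripts added). There were 4 higher and 0 lower at an unadjusted p under 0.05, beside 4.46% and 1.6% over all genes. SCD, the desaturase that makes monounsaturated fatty acids, had 332, 266, 280.4 and 316 FPKM at 10 uM, against 249.7, 223, 233, 237 and 219.9 FPKM in control. The groups did not overlap (log2 fold change 0.36, 95% interval 0.19 to 0.53, limma adjusted p = 0.458). FADS2, the delta-6 desaturase, ranged from 3.5 to 3.72 FPKM at 10 uM and from 1.51 to 3.36 FPKM in control. GPAM, which starts triglyceride assembly, had the largest difference of the list at 0.85 on the log2 scale and a wide spread. Its libraries had 3.62, 1.24, 1.65 and 6.01 FPKM at 10 uM, against 0.889, 2.64, 0.707, 0.875 and 0.735 FPKM in control. With unnamed transcripts GPAM averaged 8.14 ± 1.62 FPKM at 10 uM and 5.13 ± 1.19 FPKM in control, with overlap. FASN, fatty acid synthase, averaged 57.1 ± 11.7 FPKM at 10 uM and 47.8 ± 11.7 FPKM in control, and with unnamed transcripts 88 ± 8.41 FPKM at 10 uM and 80.0 ± 8.18 FPKM in control. ACACA, the animal cytosolic acetyl-CoA carboxylase, averaged 15.4 FPKM at 10 uM and 16.0 FPKM in control (log2 fold change -0.03).

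In the list of cholesterol synthesis, 14 of 20 tested genes were above 0 (median 0.10) and 3 were higher at an unadjusted p under 0.05 (60.8% and 4.46% over all genes). Among them IDI1, an isomerase of the isoprenoid pathway, averaged 23.0 ± 1.10 FPKM at 10 uM and 17.0 ± 4.19 FPKM in control. SQLE, which oxidises squalene, averaged 24.9 ± 0.456 FPKM at 10 uM and 22.2 ± 1.49 FPKM in control. With unnamed transcripts added 16 of the 20 were above 0 (median 0.13) and 6 were higher at an unadjusted p under 0.05. Over all 13941 genes tested in that setting, 8541 were above 0 and 700 were higher at that p. With median-ratio scaling 14 were above 0 (median 0.07) and 1 was higher at that p, beside 7095 and 401 of 13368 over all genes.

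Xenobiotic response genes gave no called member. In the AHR list 7 of 8 tested genes were above 0 with a median log2 fold change of 0.05, beside 60.8% and 0.04 over all genes. CYP1B1, an AHR target, had 8.75, 8.21, 7.48 and 7.92 FPKM at 10 uM, against 8.51, 6.94, 7.02, 8.20 and 8.64 FPKM in control (log2 fold change 0.04, 95% interval -0.16 to 0.24). CYP1A1, the classical AHR target, fell below the filter, with 0.602 FPKM in 1 library at 10 uM and 0 in the other 3, against 0.431 to 0.711 FPKM in control; with unnamed transcripts its mean was 0.560 FPKM at 10 uM and 0.547 FPKM in control. ALDH3A1, an aldehyde dehydrogenase of the same list, averaged 199 ± 21.6 FPKM at 10 uM and 168 ± 20.8 FPKM in control, with overlap.

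Of 20 CAR and PXR targets 13 were above 0, the median was 0.02, and 1 was higher at an unadjusted p under 0.05. Over all genes these values were 60.8%, 0.04 and 4.46%. CYP3A4, the main drug-oxidising enzyme of liver, had 2.02, 3.28, 3.34 and 1.83 FPKM at 10 uM, against 3.10, 2.80, 2.65, 2.70 and 2.53 FPKM in control (log2 fold change -0.08, 95% interval -0.42 to 0.26). ABCC3, an exporter of conjugates, averaged 62.6 ± 3.16 FPKM at 10 uM and 41.4 ± 13.2 FPKM in control, but with unnamed transcripts 83.3 ± 11.6 FPKM at 10 uM and 78.2 ± 9.61 FPKM in control. UGT1A1, which conjugates bilirubin and shares exons with the other UGT1A genes, averaged 40.8 ± 17.8 FPKM at 10 uM and 58.4 ± 17.4 FPKM in control. Of 20 NRF2 targets 12 were above 0 and 8 below (median 0.02). Of 16 p53 targets 11 were above 0 (median 0.04), and 0 had an unadjusted p under 0.05. Over all genes 60.8% were above 0, and 6.06% had such a p in either direction.

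The list of the unfolded protein and integrated stress responses had 20 of 22 tested genes above 0, with a median log2 fold change of 0.12 (0.09 with median-ratio scaling) and 5 genes higher at an unadjusted p under 0.05 (2 with that scaling). Over all genes 60.8% were above 0 and 4.46% higher at that p. With median-ratio scaling the median over all genes was 0.01 and 401 of 13368 were higher at that p. TRIB3, a pseudokinase induced by ATF4, had 12.7, 14.3, 11.8 and 11.3 FPKM at 10 uM, against 12.3, 11.2, 10.3, 11.8 and 11 FPKM in control (log2 fold change 0.13, 95% interval -0.06 to 0.32). PHGDH, the first step of serine synthesis, averaged 24.5 ± 1.63 FPKM at 10 uM and 20.6 ± 0.692 FPKM in control and did not overlap between groups (limma adjusted p = 0.587). ASNS, asparagine synthetase, averaged 11.1 ± 1.85 FPKM at 10 uM and 8.87 ± 0.782 FPKM in control. The chaperones HSP90B1 and PDIA4 differed by 0.25 and 0.23 on the log2 scale, PDIA4 averaging 214 ± 9.52 FPKM at 10 uM and 208 ± 9.31 FPKM in control once unnamed transcripts were added. CHAC1, an ATF4 target that degrades glutathione, differed by 0.12 (95% interval -0.24 to 0.48). ERN1, the sensor named among the lower genes, is not on this list. Its log2 fold change was -0.71, or -0.24 with unnamed transcripts added.

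Hepatocyte markers were evenly split, 10 of 20 tested being above 0, with a median log2 fold change of 0.01. Over all genes 60.8% were above 0, 4.46% were higher at an unadjusted p under 0.05, and the median was 0.04. ALB, albumin, had 8959, 9538, 10539 and 9019.7 FPKM at 10 uM, against 9286, 9681, 10318, 9597 and 8217 FPKM in control (log2 fold change 0.02, 95% interval -0.17 to 0.20). AHSG, the plasma protein fetuin-A, averaged 57.1 ± 9.43 FPKM at 10 uM and 67.4 ± 10.4 FPKM in control. CYP2E1, an ethanol-oxidising enzyme, was the 1 marker at an unadjusted p under 0.05, with 50.6, 36.2, 43.5 and 42.0 FPKM at 10 uM, against 22.1, 19.3, 23.6, 29.5 and 40.5 FPKM in control (log2 fold change 0.69, limma adjusted p = 0.666). Only control replicate 5 reached into the 10 uM range of CYP2E1.

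Acute phase genes, most of them plasma proteins that liver makes under interleukin 6, differed by sample number in 8 of the 16 tested. The numbers fall into 5 blocks, each with 1 library per group, called runs here. The labels do not say what a block was. The left-out RM-Sample-89 belongs to run 5. Run 1 therefore gives 1 of the 4 compared libraries at 10 uM and 1 of the 5 in control. CRP, C-reactive protein, had 60.4, 14.3, 12.5 and 15.3 FPKM at 10 uM, against 14.1, 13.2, 13.3, 18.9 and 82.5 FPKM in control, the library of run 1 being the high one in each group. Over all 7 groups at or below 10 uM, CRP was 60.4 to 115 FPKM in the 7 libraries of run 1 and 5.90 to 19.1 FPKM in the 27 others. HP, haptoglobin, was 2904 to 3774 FPKM in run 1 and 702 to 1431 FPKM in the others; its near-identical copy HPR can share its reads. In all, 8 of the 16 acute phase genes lay wholly higher in run 1 (CRP, SAA1, SAA2, HP, ORM1, ORM2, SERPINA3 and HPX) and the other 8, the fibrinogen chain FGB among them, overlapped. SUSD2 and EPYC overlapped too: SUSD2 was 58.4 FPKM in the run 1 library at 10 uM and 33.2 FPKM in that of control.

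Of 16 acute phase genes tested 14 were above 0 at 10 uM (median 0.15), beside 60.8% over all genes (median 0.04). Run 1 weighs more in the 10 uM group than in control, and its part in these values was not tested. At an unadjusted p under 0.05 there was 1 higher, beside 4.46% over all genes. That gene was LBP, the binding protein of lipopolysaccharide, with 56.1, 81.1, 96.9 and 80.7 FPKM at 10 uM, against 37.4, 26.7, 66.5, 33.7 and 17.1 FPKM in control (log2 fold change 1.2, 95% interval 0.45 to 1.96, limma adjusted p = 0.642). LBP overlapped between run 1 and the other runs, and it ranged from 11.8 to 161 FPKM in the 30 other libraries. Of 11 inflammatory mediators 8 were below 0 (median -0.05), while over all genes 60.8% were above 0. Among the 8 was the chemokine CCL20, at 0.940 to 2.69 FPKM at 10 uM and 2.79 to 5.56 FPKM in control.

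Cell cycle genes were above 0 in 21 of 23 tested, with a median log2 fold change of 0.19 and 2 higher at an unadjusted p under 0.05, beside 60.8% and 4.46% over all genes. TOP2A, the topoisomerase of dividing cells, averaged 23.7 ± 2.75 FPKM at 10 uM and 18.5 ± 3.84 FPKM in control. BUB1, a spindle checkpoint kinase, averaged 10.1 ± 1.38 FPKM at 10 uM and 6.34 ± 2.71 FPKM in control, and with unnamed transcripts 10.2 ± 1.40 FPKM and 9.17 ± 1.73 FPKM.

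Other lists lay near the median of all genes or held few members. The median log2 fold change was 0.31 over 4 metallothioneins, 0.13 over 11 genes of the urea cycle and amino acid degradation, 0.11 over 4 of tyrosine degradation and 0.08 over 15 interferon-stimulated genes. It was 0.07 over 11 heat shock genes, 0.05 over 8 of bile acid synthesis and transport, 0.04 over 7 of gluconeogenesis and 0.01 over 10 apolipoproteins. It was -0.02 over 16 genes of glycolysis and hypoxia, -0.05 over 15 nuclear receptors, -0.05 over 4 leukocyte markers and -0.07 over 6 biliary markers. Among the receptors RXRB, a partner of PPARalpha, CAR and PXR, had 12.1 to 12.4 FPKM at 10 uM and 14.0 to 14.6 FPKM in control (log2 fold change -0.21, limma adjusted p = 0.568). With unnamed transcripts RXRB overlapped, at 14.9 to 17.0 FPKM at 10 uM and 16.1 to 17.5 FPKM in control. In all, 341 of 408 list genes were tested, 31 were higher and 4 lower at an unadjusted p under 0.05, and 15 lay wholly above and 2 wholly below control. Over all genes these shares were 4.46%, 1.6%, 2.12% and 0.539%.

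Against quizalofop-p-ethyl 0.1 uM, tested with the same 4 libraries at 10 uM and 5 at 0.1 uM, limma called 0 of 13337 genes (0%), the lowest adjusted p being 0.324. At an unadjusted p under 0.05 there were 550 genes (4.12%), 329 higher at 10 uM (2.47%) and 221 lower (1.66%). The 4 libraries lay above all 5 at 0.1 uM for 126 genes (0.945%) and below for 59 (0.442%), and the log2 fold change was above 0 for 7177 genes (53.8%). Because both comparisons use the 10 uM libraries, their values are given side by side only. EPYC had a log2 fold change of 0.72 against control and 0.56 against 0.1 uM, and COL8A1 had 0.93 and 0.66. For LUM they were 0.78 and 0.48, the second with overlap, and for IGFBP3 -0.44 and -0.35. TFPI had 0.95 and 0.25, but with unnamed transcripts it averaged 61.7 FPKM in control, 76.1 FPKM at 0.1 uM and 68.9 FPKM at 10 uM.

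Across the concentrations, PLIN2, ANGPTL4, CYP1B1 and TRIB3 overlapped control up to 10 uM and were high at 1 mM. PLIN2 averaged 33.7 FPKM in control, 36 FPKM at 0.1 uM and 32 FPKM at 10 uM, and its 5 libraries at 1 mM ranged from 591 to 1033 FPKM. ANGPTL4 was 1.88 to 3.05 FPKM in control, 1.31 to 3.19 FPKM at 0.1 uM, 1.6 to 3.31 FPKM at 10 uM and 91.4 to 108 FPKM at 1 mM. CYP1B1 was 6.94 to 8.64 FPKM in control, 6.87 to 8.88 FPKM at 0.1 uM, 7.48 to 8.75 FPKM at 10 uM and 74.4 to 109.8 FPKM at 1 mM. TRIB3 was 10.3 to 12.3 FPKM in control, 10.1 to 12.3 FPKM at 0.1 uM, 11.3 to 14.3 FPKM at 10 uM and 178 to 327 FPKM at 1 mM. In these 4 genes the 10 uM libraries overlapped control, and the 1 mM libraries lay far above all others.

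SUSD2, EPYC and LUM lay below control at the top concentration. SUSD2 was 31.5 to 36.9 FPKM in control, 30.4 to 45.5 FPKM at 0.1 uM, 51.9 to 68.7 FPKM at 10 uM and 10.9 to 15.9 FPKM at 1 mM. EPYC was 5.81 to 7.74 FPKM in control, 6.85 to 8.46 FPKM at 0.1 uM, 10.5 to 12.9 FPKM at 10 uM and 0 to 0.744 FPKM at 1 mM. LUM was 20.3 to 35.3 FPKM in control, 25.1 to 48 FPKM at 0.1 uM, 44.1 to 52.5 FPKM at 10 uM and 0.928 to 13.7 FPKM at 1 mM. IGFBP3 lay the other way, at 17.3 to 19.4 FPKM in control, 15.6 to 17.8 FPKM at 0.1 uM, 11.7 to 14.5 FPKM at 10 uM and 75.1 to 148 FPKM at 1 mM. For these 4 genes the 10 uM group and the 1 mM group thus lay on opposite sides of control. Of the leading genes COL8A1, ALPP, NR2F1, NELL2 and POM121C did so too. ERN1 and GAS5 did so by named transcripts only. With unnamed transcripts ERN1 overlapped, at 5.35 to 7.51 FPKM at 10 uM and 6.37 to 9.51 FPKM in control. GAS5 then overlapped as well, at 50.78 to 55.8 FPKM at 10 uM and 50.82 to 67.7 FPKM in control. By named transcripts ABAT and GATA4 lay below control at both, with 0.432 to 1.17 and 3.70 to 6.43 FPKM at 1 mM. The other leading genes overlapped control at 1 mM: KIAA1217, TFPI, RAB2A, ARRDC2, MRRF, HOMER2 and INTS3. Low values at 1 mM were not particular to SUSD2, EPYC and LUM: ALB was 56.6 to 2719 FPKM there.

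**Figure D4:**
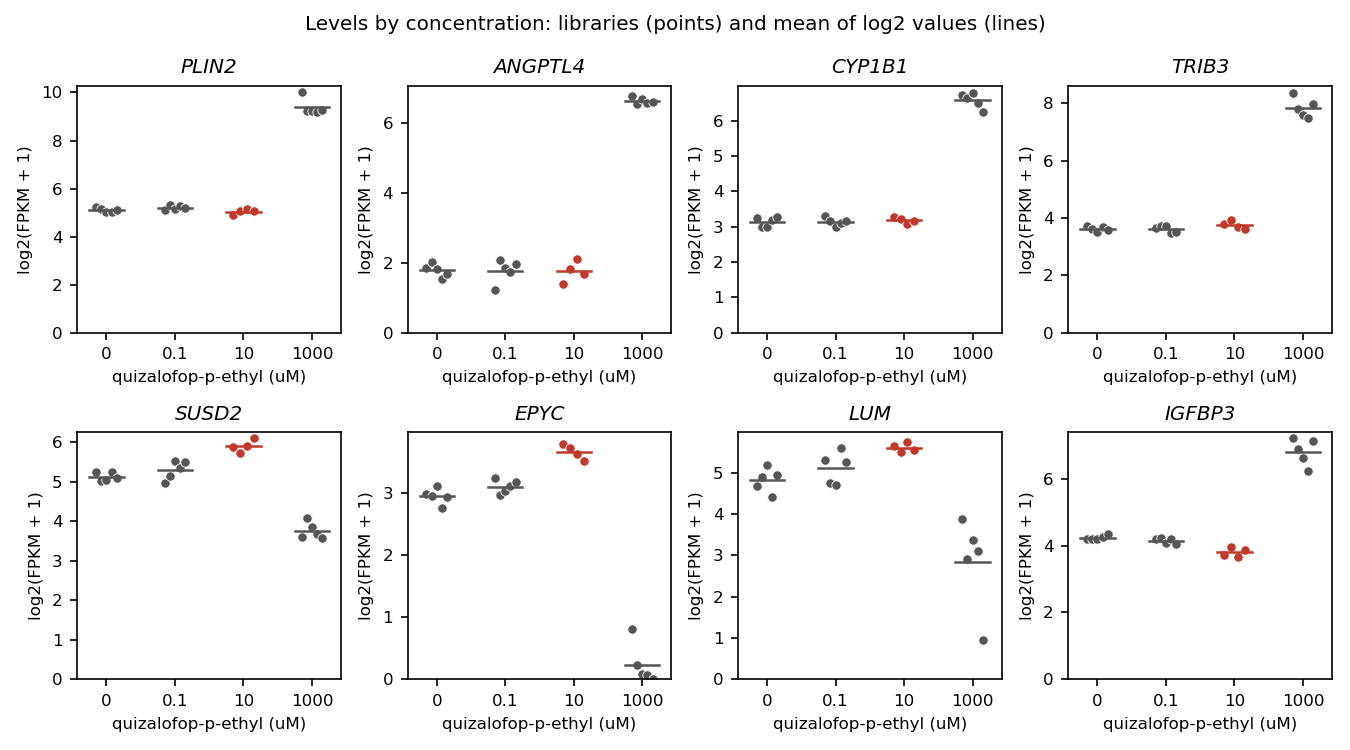
log2(FPKM + 1) (vertical axes) by concentration of quizalofop-p-ethyl in uM (horizontal axes, 0 being control, evenly spaced); points are libraries, lines means, and 10 uM is red. PLIN2, ANGPTL4, CYP1B1 and TRIB3 at 10 uM overlap control and are high at 1000 uM; SUSD2, EPYC and LUM are above control at 10 uM and below it at 1000 uM, and IGFBP3 is the reverse.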

How the data were processed

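RNA of differentiated HepaRG cells was sequenced as 75 bp paired reads from total RNA libraries depleted of ribosomal RNA, per the labels' protocols. StringTie, HISAT2 and HISAT, without versions or roles, and GRCh38 as the genome are named in the submitters' processing notes. The authors deposited FPKM values of 239290 transcripts, 199173 of them with a gene name. As FPKM is relative to a library's fragments, a few abundant RNAs lower all other values. Of the deposited values 24 lay slightly below 0 and were set to 0; a broken line was rejoined, and 25 gene names had been turned into dates.

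Transcript FPKM were summed per gene name, and genes reaching 1 FPKM in 4 or more of the 9 libraries were kept. Values were compared as log2(FPKM + 1), a scale that understates changes of low genes, with limma 3.58.1 in R 4.3.3 (trend and robust variance, Benjamini-Hochberg adjustment, threshold 0.05); tables were made in Python 3.11.15 with pandas 2.3.3. The fit was tested on simulated data. Depth was estimated from the FPKM step of 1 fragment in single-exon transcripts. Replicates are numbered in accession order. No libraries held identical values.

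The comparison, its libraries and the 27 gene lists were chosen with earlier results of these data known. The naming rule takes up to 12 genes a direction past the threshold; no gene was past it, so the genes named from low p-values were chosen after their values were seen. Alternatives were another pseudocount, filters, scaling, libraries fitted, unnamed transcripts added, a block by run, variance settings and single libraries left out; leaving out run 1 was added after seeing the data. Of the tested PPARalpha list, 2 genes are counted but not reported here by name or drawn.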

Additional observations from a re-analysis of the deposited data

Results flagged for a closer look

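Single libraries stood apart from the rest of their group in 15 cases, the gap to the nearest library being a large share of the group's range (146 groups of 4 or 5 values were examined; chance gives about 1 in 20). In the left-out 10 uM library, RM-Sample-89, 5084 genes reached 1 FPKM, against 12856 to 13201 in the other 4, and ribosomal RNA loci took 30.7%, against 0.455% to 1.46%. Of the run 1 libraries, CRP was 60.4 FPKM at 10 uM (12.5 to 15.3 FPKM in the rest) and 82.5 FPKM in control (13.2 to 18.9 FPKM in the rest), and HP was 3105 FPKM at 10 uM and 3774 FPKM in control.

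Among the 10 uM libraries, replicate 1 was low for CILP at 1.03 FPKM, for CPT1A at 23.9 FPKM (27.7 to 27.9 FPKM in the rest) and for EHHADH at 15.4 FPKM (24.9 to 25.6 FPKM in the rest). Replicate 3 was low for ACSL1 at 21.3 FPKM (30.9 to 32.1 FPKM in the rest), and replicate 2 was high for FASN at 74.7 FPKM. Among controls, GATA4 was low at 9.77 FPKM and CCL20 high at 5.56 FPKM in replicate 5, GPAM was high at 2.64 FPKM in replicate 2, and SQSTM1 was high at 288 FPKM in replicate 4. Their causes were not tested.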

How the results depend on the processing

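Against control, 0 genes were called with a pseudocount of 0.1, no filter, a filter of 5 FPKM, median-ratio scaling, RM-Sample-89 included, plain variance settings, the block by run or run 1 left out; 5 were called over 49 libraries and 4 with unnamed transcripts. Leaving out 1 library gave 0 to 4 calls: 4 without 10 uM replicate 2 (MT-CO3, MT-TD, SUSD2, ZDHHC14) and 2 without control replicate 4 (FUBP3, SQSTM1). Against 0.1 uM, the block by run gave 1 call (SQSTM1), RM-Sample-89 gave 1 (RALB), leaving out 1 library gave 0 to 2 (each of 0.1 uM replicates 1 and 5 and 10 uM replicates 2 and 4 gave at least 1), and other settings 0.

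At an unadjusted p under 0.05, RM-Sample-89 turned the split against control to 15 higher and 203 lower, no filter gave 939 and 749, and leaving out 10 uM replicate 2 gave 430 and 322. Over all genes tested, libraries of the same run shared little. The correlation of their deviations was 0.143, -0.009, 0.00346 and -0.0436 against control, and 0.13, 0.0779, 0.00788 and 0.0503 against 0.1 uM. Such a correlation cannot show run differences held by few genes, as in the 8 acute phase genes that were higher in run 1. Of the 4 libraries at 10 uM, 1 correlated best with the control of its own run and 3 with the 0.1 uM library of theirs; not all correlations were over 0.1, so the runs were not taken to pair the libraries. The replicate block by run called 0 genes against control.

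With RM-Sample-89 included, log2 fold changes turned for SUSD2 (-0.40), NR2F1 (-0.21), NELL2 (-0.17), FABP1 (-0.30), ACSL1 (-0.41), CYP4A11 (-0.52), ALDH3A1 (-0.37), HSP90B1 (-0.39), PDIA4 (-0.32), SCD (-0.14), FASN (-0.79), IDI1 (-0.36), SQLE (-0.40), ALB (-0.72), CYP2E1 (-0.18), HP (-0.60), LBP (-0.0547), COL3A1 (-0.43), DCN (-0.18), POSTN (-0.23), TOP2A (-0.35), GAS6 (-0.31), COL12A1 (-0.32), OLFML3 (-0.46), ANGPTL4 (0.13), PDK4 (0.0294) and CYP3A4 (0.14). Other turns were within 0.08 of 0: PLIN2 with unnamed transcripts (0.00503), CYP4A11 and ALB with median-ratio scaling (-0.0138 and -0.0197), PDK4 with the block by run (0.0115), and, with run 1 left out, ANGPTL4 (0.0701), EHHADH (0.0229), CYP4A11 (-0.0488) and ALB (-0.00517). Leaving out 1 library gave ranges across 0 for ANGPTL4 (-0.15 to 0.10), PDK4 (-0.23 to 0.10), CPT1A (-0.11 to 0.0041), EHHADH (-0.22 to 0.00791), CYP4A11 (-0.25 to 0.22), CYP3A4 (-0.18 to 0.0284), ALB (-0.035 to 0.0491), CRP (-0.55 to 0.44) and HP (-0.21 to 0.56). The cause was not tested. The table holds no counts, so depth is an estimate.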
